A study of Mus musculus with 10 samples.

Results

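*Lsm11* and its family were examined in RNA-seq of the prefrontal cortex (PFC) of *Zbtb16* KO and WT mice. The genes described are *Lsm11*, *Lsm10*, *Slbp* and *Lsm1* to *Lsm7*, 10 of the 22000 genes in the deposited count table. They were chosen because *Lsm11* was among the genes that passed the threshold between the genotypes, so its difference is given as a description without a test. The other 9 genes were taken for their kinship or shared pathway with it. All 10 were among the 14344 genes that passed the filter on low counts. Each group held 5 mice, labelled male and 7 weeks old, with 1 stranded mRNA library per mouse. KO mice were homozygous for *lu*, a spontaneous nonsense mutation of *Zbtb16* on the B6.C3 background, which every cell carries and which leaves the gene in place. WT mice carried no such allele.

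LSm proteins are small RNA-binding proteins that close into rings of 7 subunits. The Lsm1 to Lsm7 ring sits in the cytoplasm, binds the shortened tails of mRNAs and helps to remove their caps before decay. The nuclear ring, in which Lsm8 takes the place of Lsm1, holds the end of U6 snRNA, a core RNA of the spliceosome. Lsm10 and Lsm11 replace a pair of Sm proteins in the ring of the U7 snRNP, which cuts the pre-mRNAs of replication-dependent histones. Slbp binds the stem-loop at the end of these histone mRNAs. Most histone mRNAs of this kind carry no poly(A) tail and are made by dividing cells, whereas neurons of the adult PFC do not divide.

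The RNA sites that these proteins act on are printed because they set the Lsm10 and Lsm11 ring apart from the Sm rings. U7 snRNA is encoded by *Rnu7* on chromosome 6 of GRCm38 from 124741225 to 124741286 on the minus strand, and bases 2 to 31 of its 62 bases are printed. U1 snRNA, which carries a standard Sm ring, is encoded by *Rnu1a1* on chromosome 11 from 87422867 to 87423030 on the plus strand, and bases 108 to 137 of 164 are printed. Capitals mark the site around which the ring closes.
U7 snRNA: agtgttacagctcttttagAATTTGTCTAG
U1 snRNA: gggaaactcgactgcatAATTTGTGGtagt
Both sites open with the same letters and part after them. The stem-loop that Slbp binds is shown for a linker histone gene and a core histone gene, with the stem and loop in capitals. The *Hist1h1c* site lies on chromosome 13 from 23739507 to 23739532 on the plus strand, and the *Hist1h4h* site on chromosome 13 from 23531453 to 23531478 on the plus strand. Sequences were read from the Gencode M21 transcripts of GRCm38, and the histone sites lie in the 3′ parts of the mRNAs.
Hist1h1c: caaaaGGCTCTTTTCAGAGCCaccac
Hist1h4h: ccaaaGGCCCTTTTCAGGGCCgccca

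Library totals lay between 30220122 and 51231439 counts, and 3 counts, taken as the floor of detection, equalled 0.0580 to 0.0997 CPM, counts scaled to the library total with TMM factors. Floors cover counting error only. The mutated gene, *Zbtb16*, stood at 47.4 ± 4.96 CPM (SD, n = 5) in KO mice. Its WT level was 79.0 ± 7.23 CPM (SD, n = 5), and the fitted log2 fold change was -0.67. KO mouse 3, labelled male, had 1 count over 4 Y-linked genes, against 4376 to 8182 in the other mice. It was kept under its label, and results for *Lsm11* are also given without it. Markers of neurons, astrocytes, oligodendrocytes, microglia and endothelial cells were present in every library, as were 9 markers of striatal medium spiny neurons. In bulk tissue, fewer cells of a type and less RNA per cell cannot be told apart.

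*Lsm11* (ENSMUSG00000044847.13) lies on chromosome 11 of GRCm38 from 45928269 to 45944935 on the minus strand. Its exons cover 6453 bases in 4 blocks, and no annotated gene overlaps it. In KO mice 1 to 5 it was measured at 79.7, 68.3, 70.2, 70.7 and 61.4 CPM. In WT mice 1 to 5 it was measured at 59.4, 50.4, 58.0, 53.4 and 48.0 CPM. Every KO mouse lay above every WT mouse, although the lowest KO mouse, number 5, and the highest WT mouse, number 1, were close. Such a split between the genotypes was seen in 1.58% of the tested genes. The means were 70.1 ± 6.55 CPM (SD, n = 5) in KO and 53.9 ± 4.85 CPM (SD, n = 5) in WT mice.

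The fitted log2 fold change of *Lsm11* was 0.43 (SE 0.05, 95% interval 0.32 to 0.54), which is 1.35-fold. By size it ranked 26th among the 86 genes called higher in KO mice, which were 0.6% of the tested genes, and 0.844% of the tested genes were called in either direction. These shares are background only, and the interval is a description and not a test, since this contrast chose the gene. Without KO mouse 3 the KO mean was 70.0 ± 7.56 CPM (SD, n = 4) and the fitted log2 fold change was 0.47. The log2 ratio of the plain means, which uses no surrogate variables, was 0.38 with KO mouse 3 and 0.38 without it. RIN, the score of RNA integrity, split the mice into those at 9.5 or above (3 KO and 3 WT) and those under it (2 KO and 2 WT). In the first set *Lsm11* stood at 72.9 CPM in KO and 52.6 CPM in WT mice, a log2 ratio of 0.47. In the second set the means were 65.8 and 55.7 CPM, a log2 ratio of 0.24.

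**Figure D1:**
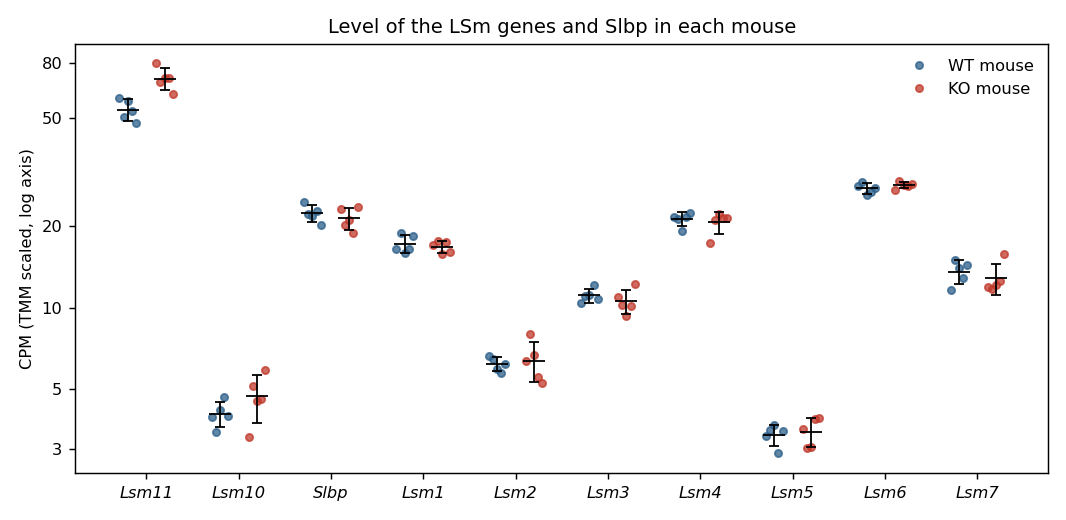
Level of each gene in each mouse, in CPM scaled by TMM on a log axis. Points are mice (blue, WT, red, KO), long bars are group means and short bars are SD with n = 5. *Lsm11* is the gene whose KO and WT points separate, at 61.4 to 79.7 against 48.0 to 59.4 CPM, and the points of each of the other 9 genes overlap between the genotypes.

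**Figure D2:**
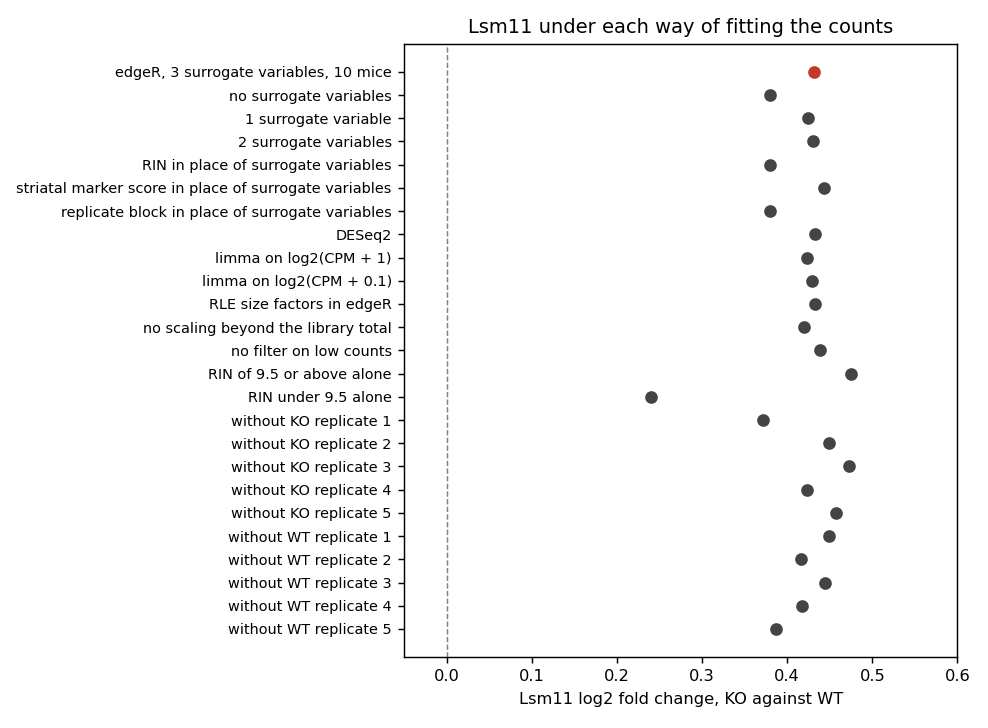
Log2 fold change of *Lsm11* (x axis) under the edgeR fit with 3 surrogate variables (red) and each of 24 alternatives (grey, y axis). All points lie above 0, from 0.24 in mice with a RIN under 9.5 to 0.47 in mice with a RIN of 9.5 or above. The alternatives refit the mice that chose the gene, so the points are a description and not a test.

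The partner of *Lsm11* in the U7 ring, *Lsm10*, had 118 to 305 counts per library. *Lsm10* (chromosome 4, 126096623 to 126098584, plus strand) was measured at 3.33, 5.13, 4.53, 4.58 and 5.89 CPM in KO mice 1 to 5. It was measured at 3.95, 3.46, 4.17, 4.67 and 3.98 CPM in WT mice 1 to 5. KO mice held both the lowest and the highest value, and the groups overlapped. The means were 4.69 ± 0.94 CPM in KO and 4.05 ± 0.44 CPM in WT mice (SD, n = 5 each). The fitted log2 fold change was 0.03 (95% interval -0.26 to 0.32, adjusted p = 0.969, edgeR), and an exact two-sided permutation test on the means gave p = 0.222. The smallest p that 5 mice against 5 can give is 0.00794. Without surrogate variables the log2 ratio of the means was 0.21, still within the spread.

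*Slbp* (chromosome 5, 33634952 to 33652574, minus strand) was measured at 23.2, 20.2, 21.0, 18.9 and 23.6 CPM in KO mice 1 to 5. In WT mice 1 to 5 it was measured at 24.6, 22.2, 21.8, 22.8 and 20.2 CPM. The groups overlapped almost throughout, with means of 21.4 ± 1.98 and 22.3 ± 1.58 CPM (SD, n = 5 each). The log2 fold change was -0.07 (95% interval -0.22 to 0.08, adjusted p = 0.816, edgeR, and exact permutation p = 0.429). An unclassified transcript on the other strand shares 474 exonic bases with *Slbp*, and whether the counting used strand is not given in the sources used here, so reads of the pair may not have been kept apart.

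*Lsm1* belongs to the cytoplasmic ring alone. It was measured at 17.0, 17.7, 15.7, 17.5 and 16.0 CPM in KO mice 1 to 5 and at 16.4, 18.9, 15.9, 16.5 and 18.5 CPM in WT mice 1 to 5. The KO values lay inside or just under the WT range, with a log2 fold change of -0.01 (95% interval -0.15 to 0.13, adjusted p = 0.986, edgeR). *Lsm8*, its counterpart in the nuclear ring, stood at 18.6 ± 1.92 CPM in KO and 17.9 ± 1.17 CPM in WT mice (SD, n = 5 each). Its fitted log2 difference was 0.03, at adjusted p = 0.948 (edgeR).

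*Lsm2* to *Lsm7* encode the subunits that both rings share. *Lsm2* lay between 5.28 and 8.02 CPM in KO and between 5.73 and 6.64 CPM in WT mice. *Lsm3* lay between 9.31 and 12.2 CPM in KO and between 10.4 and 12.1 CPM in WT mice. *Lsm5*, with the lowest mean CPM of the 10 genes in both genotypes, lay between 3.04 and 3.90 CPM in KO and between 2.89 and 3.69 CPM in WT mice. Each of these KO ranges held or met most of the WT range. *Lsm6* was the steadiest of the family, with coefficients of variation of 2.85% in KO and 4.36% in WT mice and means of 28.4 and 27.6 CPM. *Lsm4* was measured at 17.3 CPM in KO mouse 1 and between 21.0 and 22.1 CPM in the other KO mice, against 19.2 to 22.4 CPM in WT mice. *Lsm7* was measured at 15.8 CPM in KO mouse 5 and between 11.7 and 12.6 CPM in the other KO mice, against 11.6 to 15.0 CPM in WT mice. In both genes a single KO mouse set the edge of its group.

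None of the 9 genes other than *Lsm11* was called by edgeR, where 0.844% of all tested genes were. At an unadjusted p under 0.05 the number was also 0, against 10.6% of tested genes, and DESeq2 and limma called 0 of them, where they called 1.62% and 0.892% of tested genes. Their log2 fold changes ran from -0.14 (*Lsm7*, SE 0.09) to 0.05 (*Lsm5*, SE 0.15), 4 above 0 and 5 below, with a median of -0.01 beside -0.00 for all tested genes. Adjusted p-values lay between 0.644 and 0.986 (edgeR), and exact permutation p-values between 0.222 and 0.786. The 95% intervals stayed between -0.33 and 0.37. Differences inside these intervals could not be told from 0 with 5 mice per group.

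**Figure D3:**
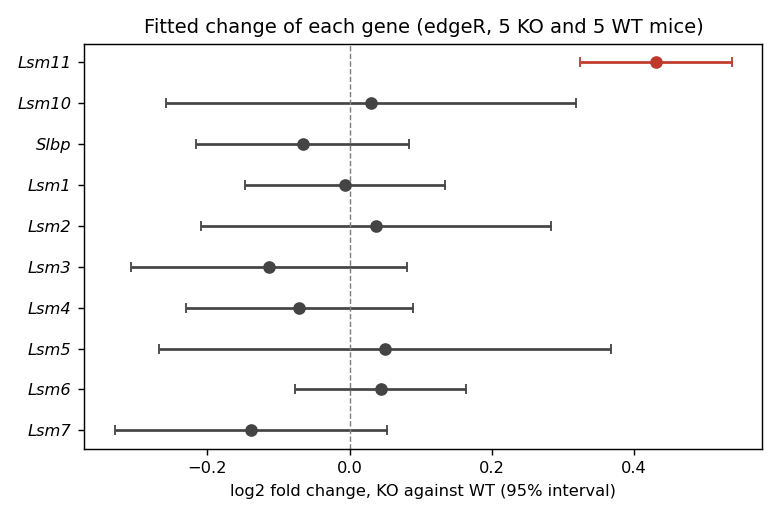
Fitted log2 fold change (x axis, KO against WT) of each gene (y axis) with its 95% interval from edgeR, 5 mice per genotype. *Lsm11* (red) sits at 0.43, and the intervals of the other 9 genes include 0. The *Lsm11* interval is a description and not a test, since this contrast chose that gene.

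Levels between genes were compared as CPM per kilobase, which depends on the length given to each gene. With the union of all exons, WT mice held *Lsm4* at 20.5 ± 1.18, *Lsm7* at 8.48 ± 0.86 and *Lsm11* at 8.35 ± 0.75 CPM per kilobase (SD, n = 5). *Lsm4* lay above every other gene in all WT mice, while the values of *Lsm7* and *Lsm11* overlapped. *Lsm6* (6.77), *Lsm1* (5.57), *Lsm10* (4.29), *Lsm5* (4.28), *Lsm3* (4.03), *Slbp* (3.67) and *Lsm2* (1.96 CPM per kilobase) followed, and from *Lsm10* to *Slbp* each gene overlapped the next. With the longest coding transcript in place of the union, *Lsm4* stayed first at 22.9 ± 1.33 CPM per kilobase, *Lsm11* moved to rank 5 and *Lsm10* came last. *Lsm3*, *Slbp* and *Lsm2*, whose annotated exons cover far more bases than that transcript (6076 against 1906 for *Slbp*, 3152 against 873 for *Lsm2*), rose in rank to 2, 4 and 7.

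The only lengths that both definitions share are those of *Lsm11* and *Lsm10*, which allowed the pair to be set against each other. Per kilobase, the ratio of *Lsm11* to *Lsm10* was 3.50, 1.94, 2.26, 2.26 and 1.52 in KO mice 1 to 5. It was 2.20, 2.13, 2.03, 1.67 and 1.76 in WT mice 1 to 5. KO mice held both the highest and the lowest ratio, so the groups overlapped, at 2.30 ± 0.74 in KO and 1.96 ± 0.23 in WT mice (SD, n = 5 each). *Lsm11* mRNA exceeded *Lsm10* mRNA per kilobase in all 10 mice.

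**Figure D4:**
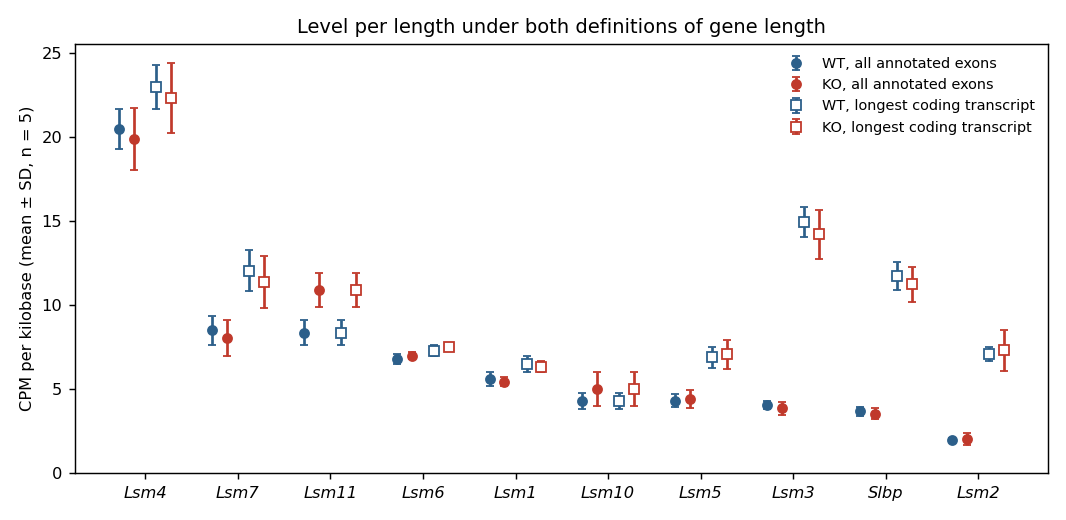
CPM per kilobase (y axis, mean ± SD, n = 5) of each gene (x axis) in WT (blue) and KO mice (red). Filled circles use the union of all exons and open squares the longest coding transcript. *Lsm4* is highest under both lengths, at 20.5 and 22.9 CPM per kilobase in WT mice, and *Lsm3*, *Slbp* and *Lsm2* move most between them.

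Reads shared with other genes limit some of these values. A match of at least 95% identity over 101 bases, the read length, to an annotated pseudogene was found for *Slbp* (1 pseudogene), *Lsm5* (2), *Lsm6* (3) and *Lsm7* (2). The longest such match was 828 bases, between *Slbp* and *Gm8396*, at 95.5% identity. Reads that map to several places were removed by the authors, so counts from these stretches are uncertain. *Lsm11* matched 38 other genes, over at most 138 of its 6453 bases. *Lsm3* shares 174 exonic bases with a transcript on its own strand.

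Among the 27 listed genes of the U7 snRNP and of histone pre-mRNA processing, none besides *Lsm11*, which this contrast chose, was called, where 0.844% of tested genes were. Of the other genes of the list, *Snrpb* alone had an unadjusted p under 0.05, higher in KO mice, where 5.51% of tested genes were. The median log2 fold change of the list was 0.02, beside -0.00 for all tested genes. *Sympk* (149 ± 3.28 CPM in KO, 145 ± 8.92 in WT) and *Cstf2* (120 ± 6.20 and 121 ± 8.03), which encode parts of the cleavage machinery, had log2 fold changes of 0.02 and -0.00. *Dhx9*, a helicase, and *Cstf2t*, a further cleavage factor, had -0.01 and 0.07 with adjusted p-values of 0.975 and 0.611 (edgeR). *Snrpb*, which encodes a subunit of both the U7 and the spliceosomal Sm rings, stood at 55.2 ± 3.23 CPM in KO and 51.3 ± 0.76 CPM in WT mice. The fitted log2 difference was 0.13 (adjusted p = 0.306, edgeR). *Zfp473*, which encodes the zinc finger protein that joins the stem-loop complex to U7, was low, at 0.321 ± 0.118 and 0.261 ± 0.126 CPM (SD, n = 5 each).

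None of the other listed pathways held a called gene in edgeR, DESeq2 or limma, apart from the replication-dependent histone genes described below. These methods called 0.844%, 1.62% and 0.892% of tested genes. The 8 Sm core genes had a median log2 fold change of -0.00, and *Snrpb* was the member with an unadjusted p under 0.05. *Snrpn*, the neuronal form of the Sm B protein, was the most abundant of them at 626 ± 29.3 CPM in KO and 634 ± 14.7 CPM in WT mice. Of 6 other LSm-domain genes 5 lay above 0, with a median of 0.06. *Edc3*, an enhancer of decapping, did not overlap between the genotypes, a split seen in 1.58% of tested genes, and was not called. It stood at 28.0 ± 0.79 CPM in KO and 25.6 ± 1.10 CPM in WT mice (adjusted p = 0.457, edgeR). *Lsm14a* and *Lsm12* had log2 fold changes of 0.09 and 0.10, and *Lsm14b* -0.04, none of them called.

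None of the listed partners of the rings was called, where edgeR called 0.844% of tested genes. Of 20 listed genes of decapping and decay 19 were tested, with a median log2 fold change of 0.01. *Ddx6*, a helicase that works with the Lsm1 to Lsm7 ring, stood at 226 ± 11.0 CPM in KO and 224 ± 7.31 CPM in WT mice, and *Dcp2*, the decapping enzyme, at 96.3 ± 7.46 and 102 ± 6.17 CPM. Of the 17 genes tied to U6 and the tri-snRNP, the median was 0.03, and *Prpf8*, at the heart of the spliceosome, stood at 251 ± 7.22 CPM in KO and 244 ± 19.2 CPM in WT mice. Of 14 genes of the SMN complex, which loads Sm and LSm proteins onto RNA, 13 were tested, with a median of -0.00. *Clns1a*, a chaperone in that loading, had the lowest log2 fold change of the list at -0.08 (adjusted p = 0.538, edgeR).

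Histone genes, the class of gene whose RNA the U7 pathway acts on, were then examined. The table holds 67 genes whose symbols begin with Hist1h, Hist2h, Hist3h or Hist4h, of which 14 passed the filter. They are called replication-dependent histone genes here by symbol alone, and processing of each by U7 was not tested. Summed over the 67 genes, KO mice 1 to 5 held 64.4, 72.6, 64.3, 68.0 and 75.8 CPM. WT mice 1 to 5 held 75.8, 78.9, 72.4, 73.3 and 80.5 CPM. The 2 highest KO mice fell inside the WT range, and the means were 69.0 ± 5.05 and 76.2 ± 3.50 CPM (SD, n = 5 each). The mRNA kit captures poly(A) tails, so these values count tailed or otherwise captured histone RNA and not the tailless pool.

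The stem-loop was searched for as a stem of GGCNCT and AGNGCC around the loop TTTN, on the transcript strand alone. It was found in 42 of the 67 genes. It was also found in 0.0799% of the 58797 protein-coding transcripts, a share that includes the histone transcripts. Outside the histone symbols, 3 protein-coding genes held the letters. A gene without a match lacks these exact letters in its annotated transcripts, so a variant or unannotated stem-loop would be missed. In 21 of the 42 genes an annotated transcript ran more than 100 bases past the stem-loop, and in the other 21 it ended within 100 bases. The genes with a longer transcript held 67.4% of all histone counts, those ending near the stem-loop 1.06%, and the 25 without a match 31.5%. These are shares of raw counts, not divided by transcript length, and a longer annotated transcript can collect more reads. Of the 14 tested genes 11 were of the first kind, *Hist1h4h* alone of the second, and *Hist1h2bc* and *Hist2h2be* of the last. The *Hist1h1c* transcript ran 840 bases past the stem-loop printed above, and the *Hist1h4h* transcript 46 bases.

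None of the 14 tested histone genes was called by edgeR or limma, and DESeq2 called *Hist1h1c*, where it called 1.62% of tested genes. At an unadjusted p under 0.05 edgeR gave 5, all lower in KO mice, where 5.1% of tested genes were lower at that level. Over the 14 genes the median log2 fold change was -0.13, and 11 lay below 0, beside 51.9% of all tested genes. *Hist1h1c*, a linker histone gene, was measured at 9.40, 10.7, 7.74, 10.9 and 14.1 CPM in KO mice 1 to 5. It was measured at 15.7, 11.8, 13.1, 12.3 and 13.2 CPM in WT mice 1 to 5. KO mouse 5 lay inside the WT range and the other KO mice below it, with a log2 fold change of -0.42 (SE 0.11, adjusted p = 0.112, edgeR). The other 4 were *Hist1h2ac* (-1.19), *Hist2h3c2* (-0.80), *Hist1h2be* (-0.48) and *Hist1h2bc* (-0.21), with adjusted p-values from 0.271 to 0.430 (edgeR). Single libraries moved these values: without KO mouse 1 *Hist1h2ac* was at -0.72 and *Hist1h2be* at -0.21, and without WT mouse 5 *Hist1h2bc* was at -0.12. Without surrogate variables *Hist1h2ac* was at -0.61. *Hist1h2ac* reached down to 0.0847 CPM in KO mouse 1, which is the floor of 3 counts in that library.

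**Figure D5:**
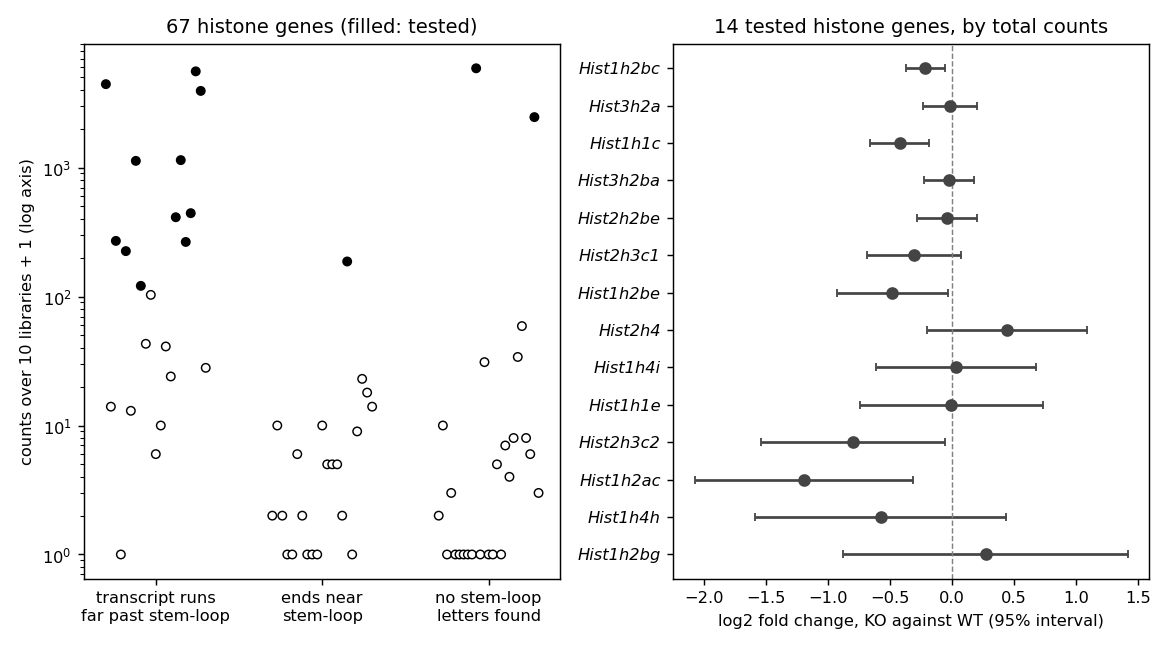
Left, counts over the 10 libraries plus 1 (log y axis) of 67 replication-dependent histone genes, grouped by where the annotated transcript ends (filled, tested genes). Right, fitted log2 fold change (x axis, KO against WT) with 95% intervals of the 14 tested genes, where 11 lie below 0 and 5 intervals exclude 0.

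The count of 5 histone genes at that level became 2 without KO mouse 1, 2 without WT mouse 5, 3 without KO mouse 5 and 3 without WT mouse 1. Of 11 histone genes listed as replication-independent 0 were called, where edgeR called 0.844% of tested genes. Whether each of these 11 is made outside S phase alone was not tested. Their median log2 fold change was -0.00. *H3f3b*, a replacement histone H3 gene, stood at 149 ± 7.27 CPM in KO and 150 ± 7.54 CPM in WT mice. Among 14 genes of cycling cells 0 were called, beside the same share of 0.844%. *E2f1*, a driver of S phase, had a log2 fold change of -0.19 (adjusted p = 0.340) and *Rrm2*, an enzyme of DNA precursor synthesis, of 0.51 (adjusted p = 0.325, both edgeR).

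The genes most like *Lsm11* over the 10 libraries, by Pearson r of log2 CPM, were *Cops7b* (0.96), *Efr3b* (0.93), *Prickle2* (0.93), *Sp2* (0.92) and *Eif2b5* (0.92). These libraries share the genotype difference that chose *Lsm11*. With each genotype's mean subtracted, the most alike were *Gse1* (0.95), *Dpf1* (0.94), *Pitpnm3* (0.94), *Pgbd5* (0.93) and *Rcc2* (0.93), and no gene was in both sets. Within its family the values ran from -0.61 for *Lsm7* to 0.18 for *Lsm2*, with 0.09 for *Lsm10*, over the same 10 libraries. With the genotype means subtracted they ran from -0.74 for *Lsm7* to 0.29 for *Slbp*. *Lsm10* (-0.54), *Lsm6* (-0.50, against 0.10 before), *Lsm5* (-0.10, against 0.05 before) and *Slbp* (-0.10 before) changed sign. These correlations are descriptions across 10 mice whose libraries also differ in depth and RNA quality.

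Marker genes of other cells were set beside the *Lsm11* difference. None of the marker genes of 7 cell types was called by edgeR or limma, which called 0.844% and 0.892% of tested genes. DESeq2, which called 1.62% of tested genes, called 1 neuronal and 1 striatal marker. No marker was at 0 in any library. The 4 astrocyte markers summed to 947 to 1200 CPM in KO and 913 to 994 CPM in WT mice, and all 4 had log2 fold changes above 0. All 4 oligodendrocyte and all 3 endothelial markers lay below 0, and the 2 precursor markers above 0. Of the striatal markers 7 of 9 lay above 0, of the microglial 3 of 4 below, and of the neuronal 3 each way. Over all tested genes 51.9% lay below 0. The 6 neuronal markers summed to 5596 to 6303 CPM in KO and 6120 to 6451 CPM in WT mice. The 9 striatal markers summed to 411 to 584 CPM in KO and 369 to 692 CPM in WT mice, and 4 of them had an unadjusted p under 0.05, all higher in KO mice, where 5.51% of tested genes were higher at that level. At the same level 2 of 4 astrocyte markers and 1 of 2 oligodendrocyte precursor markers were higher, 1 microglial and 1 endothelial marker were lower, and 1 neuronal marker lay each way. With a score of these striatal markers as the covariate, *Lsm11* had a log2 fold change of 0.44. The summed oligodendrocyte, precursor, microglial and endothelial markers overlapped between the genotypes. The part of these cell types in the result was not tested.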

How the data were processed

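PFC RNA of 5 KO and 5 WT mice, 1 library per mouse, was analysed, with groups and replicate numbers taken from the labels. The authors aligned reads to mm10 with STAR (2.7.1a), removed multi-mapped reads, counted on exons of protein-coding Gencode M21 genes with HTSeq (0.9.1), and deposited raw counts for 22000 genes. Library totals were 30220122 to 51231439 counts.

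Counts were tested with edgeR (4.0.16, R 4.3.3; quasi-likelihood, TMM, filterByExpr, Benjamini-Hochberg adjustment, threshold 0.05) on genotype and 3 surrogate variables from sva (3.50.0) on log2(CPM + 1), seed 1. DESeq2 (1.42.0) and limma (3.58.1) were alternatives. CPM in the text are TMM scaled. The fit was tested on simulated counts. No pair of libraries of a group agreed within sampling noise. Sequence matches used blastn (2.17.0). Named genes were the members, *Zbtb16*, every called gene of the lists, up to 4 further genes per list with the highest mean, and the 5 genes most like *Lsm11* in each of 2 ways. *Lsm8*, *Zfp473*, *Rrm2* and the histone genes with an unadjusted p under 0.05 were named after their values were seen. The members and lists were chosen with earlier results of these data known. A listed striatal marker was not analysed here.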

Additional observations from a re-analysis of the deposited data

Results flagged for a closer look

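In 12 of 114 groups of 5 mice checked, 1 mouse stood far from the other 4, by the ratio of its gap to the group's range (above 0.71), and chance gives about 1 in 20. Within the family these were *Lsm4* in KO mouse 1 (17.3 CPM, the others 21.0 to 22.1) and *Lsm7* in KO mouse 5 (15.8 CPM, the others 11.7 to 12.6). Among histone genes they were *Hist3h2ba* in KO mouse 5 (13.5 CPM, high) and in WT mouse 3 (9.11 CPM, low), *Hist2h3c1* in KO mouse 5 (2.40 CPM, low) and *Hist1h1e* in WT mouse 5 (1.05 CPM, high). Among pathway genes they were *Cstf2t* in KO mouse 5 (97.1 CPM, low), *Snrpd1* in WT mouse 2 (36.7 CPM, high), *Edc3* in KO mouse 3 (29.4 CPM, high), *Dcp2* in KO mouse 5 (83.1 CPM, low) and in WT mouse 2 (113.2 CPM, high), and *Ccne1* in KO mouse 2 (12.1 CPM, low). KO mouse 5, the most deeply sequenced, accounted for 5 of the 12.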

How the results depend on the processing

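The log2 fold change of *Lsm11* stayed above 0 under 24 alternatives. It was 0.24 with RIN under 9.5 alone and 0.37 to 0.47 when each mouse was left out. The gene was chosen from these same mice, so its sign under refits is a description and not a test. The other 9 genes were called under none. Of the 121 genes called over the whole table, the count was 30 with no surrogate variables, 34 with 1, 57 with 2, 38 with RIN, 15 with the striatal score, 233 with DESeq2, 1 with RIN of 9.5 or above alone and 0 with RIN under 9.5 alone, and it ran from 39 to 248 when each mouse was left out. The higher and lower calls, 86 and 35, were 76 and 44 without scaling. Replicate numbers did not pair the mice (correlations of same-numbered mice from -0.06 to 0.16, over 0.1 in 2 of 5, and best with their own number in 2 of 5). With the number as a replicate block, 24 genes were called and *Lsm11* was at 0.38. Histone genes lower at an unadjusted p under 0.05, an outcome added after seeing the data, numbered 5, and 2 with 1 surrogate variable, 2 with the block, 2 with RIN of 9.5 or above, 0 with RIN under 9.5, and 2 to 4 when each mouse was left out. Listed pathway genes called, *Lsm11* left out, numbered 0, and 1 with DESeq2. Of the 5 genes most like *Lsm11*, 1 to 4 remained when each mouse was left out. Of the 5 within genotypes, 3 remained without scaling and 0 to 2 when each mouse was left out. The causes were not tested. Low depth limits *Lsm5*, *Lsm10* and the rarer histone genes.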
